A study of Mus musculus with 40 samples.

Results

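Complex I, the NADH dehydrogenase that feeds electrons into the mitochondrial respiratory chain, is built from subunits of both genomes. The 7 subunits encoded by mitochondrial DNA (mtDNA) form much of its membrane arm, and their genes are mt-Nd1, mt-Nd2, mt-Nd3, mt-Nd4, mt-Nd4l, mt-Nd5 and mt-Nd6. All are read from long transcripts that are cut at the tRNAs between the genes, and mt-Nd6 is the 1 protein gene of the mtDNA that lies on the strand opposite to the others. In neurons, which rely on oxidative phosphorylation, these transcripts are abundant. The members were the 7 genes of that list among 47643 gene identifiers in each table. The list was chosen by gene name, and mt-Nd4 was selected on its measured log2 post-KD change, which differed between the brain regions, so its values in those comparisons are a description without a test.

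The brain libraries came from wild-type, initially germ-free female Swiss Webster mice of 6 to 8 weeks, which were colonized with human stool taken before (pre-KD) or during (post-KD) a ketogenic diet. All recipient mice ate the control chow, and none was on the ketogenic diet. Stool of 10 donors taken at both times gave 20 cohorts, and each cohort gave 1 hippocampal and 1 frontal cortical library, pooled from 6 mice at 4 days after colonization. The 40 libraries therefore fell into 4 groups of 10. They held 1140756 to 2095352 gene counts each, no 2 were identical, and each result is on a pool, so the spread between single mice was not measured. Gm42418, an annotated gene over ribosomal RNA sequence, took 8.63% to 18% of the counts. Markers were called at an adjusted p under 0.05 (edgeR, cohort as a block), which 2.82% of 19422 genes reached between the regions. Of 9 hippocampal markers 5 were called lower in the frontal cortex and 0 higher, and in sign all 9 were lower. Of 8 cortical markers 2 were called higher there and 1 lower, against its label, and in sign 7 were higher. All 6 tested striatal markers (of 7) were called higher in the frontal cortical libraries, with a median log2 difference of 3.40. Called lower there were 7 of 10 choroid plexus markers, and in sign all 10 were lower. These 10 summed to 7.85 to 617 CPM (counts scaled to a common library size) there against 504 to 4453 CPM in the hippocampus.

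On the mtDNA of mm10 (GENCODE), mt-Nd1 (ENSMUSG00000064341) lies at chrM:2751-3707 and mt-Nd2 (ENSMUSG00000064345) at chrM:3914-4951. mt-Nd3 (ENSMUSG00000064360) lies at chrM:9459-9806, mt-Nd4l (ENSMUSG00000065947) at chrM:9877-10173 and mt-Nd4 (ENSMUSG00000064363) at chrM:10167-11544. mt-Nd5 (ENSMUSG00000064367) follows at chrM:11742-13565, and mt-Nd6 (ENSMUSG00000064368) at chrM:13552-14070 on the minus strand. Each is 1 exon without introns.

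Copies and overlaps of the genes can bear on how reads are counted and are shown by sequence. Nuclear DNA on mouse chromosome 1 (mm10) holds annotated copies of several mtDNA genes, in the span 24611535 to 24616197 on the minus strand, so a read can match in both places. Windows of the read length, 69 bases, were searched in all GENCODE transcripts. Reads were paired, and a pair with 1 mate outside the shared stretch can be placed, so single windows are an upper bound on what is shared within these transcripts. The copy Gm28438 follows mt-Nd3 over 345 bases with 1 difference, T3C, counted from the first base of the gene. Its capital is shown in the first 60 bases of both.

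mt-Nd3 (chrM:9459-9518, plus strand): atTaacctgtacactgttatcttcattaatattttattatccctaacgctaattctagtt

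Gm28438 (chr1:24613060-24613119, minus strand): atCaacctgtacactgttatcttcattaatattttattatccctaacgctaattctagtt

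The copy Gm28439 is identical to bases 1 to 876 of mt-Nd4 and stops there. In the stretch across its end, capitals mark the bases past the copy.

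mt-Nd4 (chrM:10983-11102, plus strand): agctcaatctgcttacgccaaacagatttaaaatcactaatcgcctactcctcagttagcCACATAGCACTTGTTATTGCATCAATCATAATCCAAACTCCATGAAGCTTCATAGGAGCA

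Neighbouring genes also overlap. The last 7 bases of mt-Nd4l are the first 7 of mt-Nd4, and mt-Nd5 and mt-Nd6 meet tail to tail on opposite strands over 14 bases. Capitals mark the shared bases, and each line runs 5′ to 3′ on its own strand.

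mt-Nd4l (chrM:10134-10173, plus strand): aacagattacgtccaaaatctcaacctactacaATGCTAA

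mt-Nd4 (chrM:10167-10206, plus strand): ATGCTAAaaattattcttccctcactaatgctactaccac

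mt-Nd5 (chrM:13526-13565, plus strand): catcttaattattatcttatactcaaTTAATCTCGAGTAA

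mt-Nd6 (chrM:13552-13591, minus strand): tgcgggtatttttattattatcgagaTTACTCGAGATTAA

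The share of windows that another annotated transcript also holds differed widely among the members. It was 0% for mt-Nd1 and mt-Nd6, 2.39% for mt-Nd5 and 6.29% for mt-Nd2. It was 61.7% for mt-Nd4 and reached 97.9% for mt-Nd3 and 98.7% for mt-Nd4l.

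**Figure D1:**
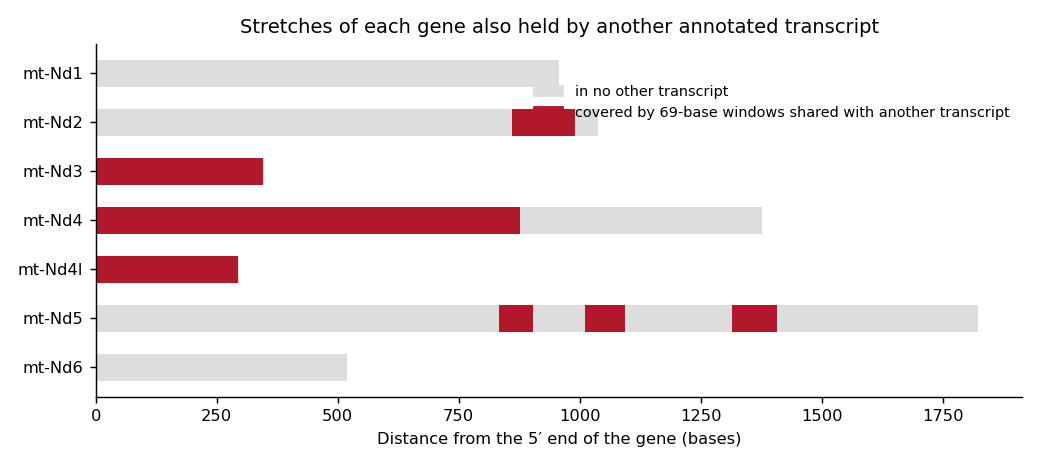
Each bar is 1 gene, drawn from its 5′ end with its length in bases on the x axis, and red marks stretches covered by 69-base windows that another annotated transcript also holds. mt-Nd3 and mt-Nd4l are red over nearly their whole length, mt-Nd4 over bases 1 to 876, and mt-Nd1 and mt-Nd6 nowhere.

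The 2 members that were almost wholly shared had almost no counts. mt-Nd4l had 0 counts in all 40 libraries, which allows up to 0.0979 CPM over the hippocampal libraries together and 0.0888 CPM over the frontal cortical ones, for counting error only. mt-Nd3 had 3 counts of 30653558 in the hippocampus and 1 of 33793436 in the other region. Its copy Gm28438 held more: 1092 counts over the hippocampal libraries and 856 over the frontal cortical ones, with at least 17 in every library. The copies of mt-Nd4 and mt-Nd4l, in contrast, had at most 4 counts over the libraries of a region. The same picture held beyond complex I, where mt-Co2, mt-Co3 and mt-Atp6, each shared over more than 99% of windows, had at most 25 counts per region. mt-Atp8 also had 0 counts although no annotated transcript shares a window with it. The counts of mt-Nd3 and mt-Nd4l were not read as the level of their RNA, and neither entered a test. How reads with several matches were counted is not given in the sources used here, and its part in these zeros was not tested.

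The 5 remaining members, mt-Nd1, mt-Nd2, mt-Nd4, mt-Nd5 and mt-Nd6, had at least 10 counts in each region and could be compared. Together the 7 genes took a median of 5.06% of all counts in the pre-KD hippocampus (4.05% to 5.71%) and 5.25% in the post-KD hippocampus (4.83% to 6.28%). In the frontal cortex the medians were 5.27% pre-KD (4.61% to 6.48%) and 5.23% post-KD (4.68% to 6%). The 4 ranges overlapped. All mtDNA genes together took medians of 13.3% to 13.5%, and the rRNA genes mt-Rnr1 and mt-Rnr2 held more of this than complex I, with medians of 6.78% to 7.11%. Among the counts of mtDNA protein genes, complex I made up medians of 82.8% to 85.2%, a share that the near-zero mt-Co2, mt-Co3, mt-Atp6 and mt-Atp8 raise.

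Per kilobase of gene, mt-Nd4 had the highest value. This scale holds for reads from the whole transcript, as the TruSeq kit of the labels gives. The study's resource list also names a kit that reads 3′ ends, for which counts do not scale with length and the order below would not be one of levels. mt-Nd4, a core subunit of the proton-pumping membrane arm, reached 10484, 16654 and 22505 CPM per kb in the hippocampus (lowest, median and highest of 20 libraries) and 14524, 17523 and 27710 in the frontal cortex. mt-Nd2, its neighbour in that arm, stood at 11870, 14003 and 19924 CPM per kb in the hippocampus and 12700, 15456 and 21723 in the frontal cortex. mt-Nd4 exceeded mt-Nd2 in 36 of 40 libraries, with ratios from 0.855 to 1.42, so this step in the order was not kept in every library. mt-Nd1, the subunit at the joint of both arms, followed with medians of 9745 and 10682 CPM per kb in hippocampus and frontal cortex. It was below mt-Nd2 in 40 of 40 libraries. mt-Nd5, the outermost pumping subunit, was far lower, with medians of 1652 and 1568 CPM per kb, and mt-Nd1 was 4.56 to 8.36 times higher in each library. mt-Nd6, read from the opposite strand, was the lowest, with medians of 108 and 69.3 CPM per kb. Divided by the windows that no other transcript holds, which assumes that every read from a shared window was dropped, mt-Nd4 rose to a median of 47533 CPM per kb over the 40 libraries, against 17057 for mt-Nd2, and then led in 40 of 40.

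**Figure D2:**
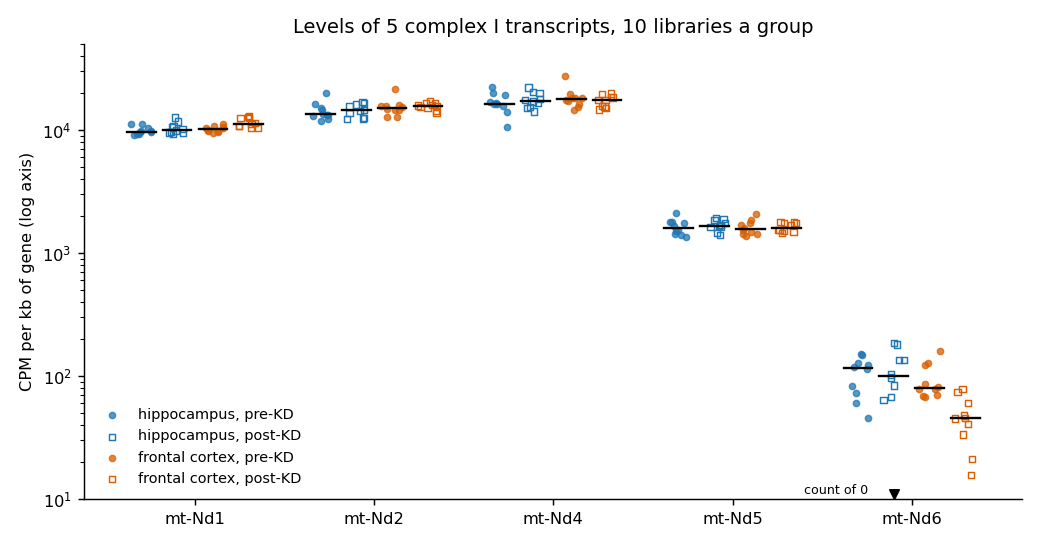
The y axis gives CPM per kb of gene on a log scale for 5 genes in 4 groups of 10 libraries, 1 point per library and a bar at each median; a triangle marks a count of 0. mt-Nd4, mt-Nd2 and mt-Nd1 lie at 9039 CPM per kb or higher in every library, while mt-Nd6 lies at 186 or lower.

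The members differed in their spread over the 20 libraries of a region, pre-KD and post-KD together. The coefficient of variation of mt-Nd4 was 16.9% in hippocampal and 16.1% in frontal cortical libraries, where counting alone gives 0.521% and 0.498%. It was 9.25% and 9.61% for mt-Nd1 on this CPM scale, and 44.3% and 50.6% for mt-Nd6, where counting alone gives 11% and 13%. As a share of all counts, mt-Nd2 varied less (9.93% and 8.9%) than mt-Nd1 (12.2% and 10.8%). mt-Nd2, mt-Nd4 and mt-Nd5 varied together over the 20 libraries of a region: Pearson's r of log2 CPM was 0.77 and 0.75 for mt-Nd4 with mt-Nd2 (hippocampus, frontal cortex), and 0.51 and 0.70 for mt-Nd4 with mt-Nd5. mt-Nd1 did not join them, with r of 0.12 and −0.00 with mt-Nd4. The r of mt-Nd1 with mt-Nd6 was negative in both regions, at −0.49 and −0.55. In the hippocampus 1 library, post-KD replicate 8, had both the highest mt-Nd1 (12077 CPM) and 0 counts of mt-Nd6. Its part in this r was not tested. These r values describe 20 libraries that share their scaling, and no test was made. In CPM, the pre-KD library of replicate 8 had the highest mt-Nd2 and mt-Nd4 of each region, and its part in r was not tested.

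1 cohort stood high in both regions. The pre-KD cohort of replicate 8 had the highest mt-Nd4 of all hippocampal (31013 CPM) and frontal cortical libraries (38185 CPM, against 26889 CPM in the next library of its group), and the highest mt-Nd2 in both (20681 and 22548 CPM). As a share of all counts, the hippocampal mt-Nd4 of that cohort (2.769%) lay below that of post-KD replicate 2 (3.054%). Without Gm42418 in the total the shares were 3.376% and 3.435%. Gm42418 also took its highest share in the pre-KD cohort of replicate 8, 18% in each region. The part of Gm42418 in these levels was not tested.

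The first comparison asked whether the stool donor's diet changed the transcripts in the hippocampus of the recipients, and none of the 4 tested members passed the test. mt-Nd1 ran from 8651 through a median of 9276 to 10711 CPM pre-KD and from 8915 through 9577 to 12077 CPM post-KD. mt-Nd2 ran from 12321 through 13938 to 20681 CPM pre-KD and from 12717 through 14994 to 17425 CPM post-KD. mt-Nd5 ran from 2479 through 2907 to 3887 CPM pre-KD and from 2560 through 3030 to 3516 CPM post-KD. The groups overlapped over most of their ranges for these 3 genes. The log2 fold changes, post-KD over pre-KD, were 0.055 (SE 0.06) for mt-Nd1, 0.01 (SE 0.06) for mt-Nd2, 0.03 (SE 0.08) for mt-Nd5 and 0.00 (SE 0.35) for mt-Nd6, and each had an adjusted p of 1 (edgeR, quasi-likelihood, Benjamini-Hochberg over 17529 genes). The 95% intervals ran from −0.07 to 0.18 for mt-Nd1 and from −0.12 to 0.13 for mt-Nd2. With 1 replicate left out the mt-Nd1 value ran from 0.019 (without replicate 8) to 0.086 (without replicate 9), and limma-voom gave 0.003. The own spread of mt-Nd2 and mt-Nd6 was 2.15 and 1.83 times the spread this fit used, so their intervals are too narrow. In the same test 1 gene of all was called at an adjusted p under 0.05, or 0.0057%. At an unadjusted p under 0.05, the level the study used, 0 of the 4 members passed, beside 10.1% of all genes (4.57% higher post-KD).

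mt-Nd6 could not be bounded as closely. Its pre-KD values lay between 23.5 and 78.3 CPM with a median of 60.3 CPM, and its post-KD values between 0 and 96.5 CPM with a median of 51.8 CPM. The 95% interval of its log2 change ran from −0.68 to 0.68. The post-KD library of replicate 8 had 0 counts of mt-Nd6 in a total of 1443468, which allows up to 2.08 CPM, while the other 19 hippocampal libraries had 40 to 144 counts.

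The second comparison asked the same of the frontal cortex. 2 of the 4 tested members had an unadjusted p under 0.05, mt-Nd1 with a higher and mt-Nd6 with a lower level post-KD, and neither passed the adjustment over all genes. mt-Nd1 ran from 9063 through 9729 to 10719 CPM pre-KD and from 9941 through 10796 to 12443 CPM post-KD. The post-KD libraries lay higher and the groups overlapped. Its log2 change was 0.18 (SE 0.05, 95% interval 0.07 to 0.28), with higher values post-KD in 8 of 10 replicates (unadjusted p = 0.0012, adjusted p = 0.122 in edgeR). mt-Nd6 ran from 35.2 through 41.3 to 82.1 CPM pre-KD and from 8.10 through 23.5 to 40.7 CPM post-KD. 8 of the 10 post-KD values lay below the lowest pre-KD value, and the post-KD level was lower in 8 of 10 replicates. The log2 change of mt-Nd6 was −1.02 (SE 0.29, 95% interval −1.59 to −0.45, unadjusted p = 0.000659, adjusted p = 0.122 in edgeR). Its counts were few, between 11 and 126 per frontal cortical library, and since strand was not stated for the counting, reads of mt-Nd6 and of its antisense strand cannot be told apart.

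In the same comparison 2 of 4 tested blood markers (of 5, 1 of them at 0) and 2 of 6 tested striatal markers were higher post-KD at an unadjusted p under 0.05. In sign, 2 blood markers were higher and 2 lower, and 4 striatal markers were higher and 2 lower. The blood markers summed to 390 to 1157 CPM pre-KD (median 712) and 548 to 1389 CPM post-KD (median 937). Of the library quality RNAs, Malat1 had a log2 change of −0.14 (unadjusted p = 0.0369) and Neat1 one of 0.43 (unadjusted p = 0.0426). Their part in the mt-Nd1 and mt-Nd6 values was not tested.

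Beside these 2 of 4 members, 9.68% of the 17873 genes had an unadjusted p under 0.05 (5.01% higher post-KD) and 0.0056% an adjusted p under 0.05. mt-Nd2 (log2 change 0.02, SE 0.06) and mt-Nd5 (−0.00, SE 0.07) had adjusted p values of 0.998. The own spread of mt-Nd2 was 1.78 times the spread this fit used, so its SE is too small. Among the other mtDNA protein genes with counts, mt-Cytb of complex III had a log2 change of 0.15 (SE 0.06, unadjusted p = 0.0117, adjusted p = 0.204) and mt-Co1 of complex IV one of 0.21 (SE 0.08, unadjusted p = 0.00755, adjusted p = 0.143), while the rRNA genes mt-Rnr1 and mt-Rnr2 were at 0.02 (SE 0.05, adjusted p = 0.998) and 0.07 (SE 0.04, adjusted p = 0.591).

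**Figure D3:**
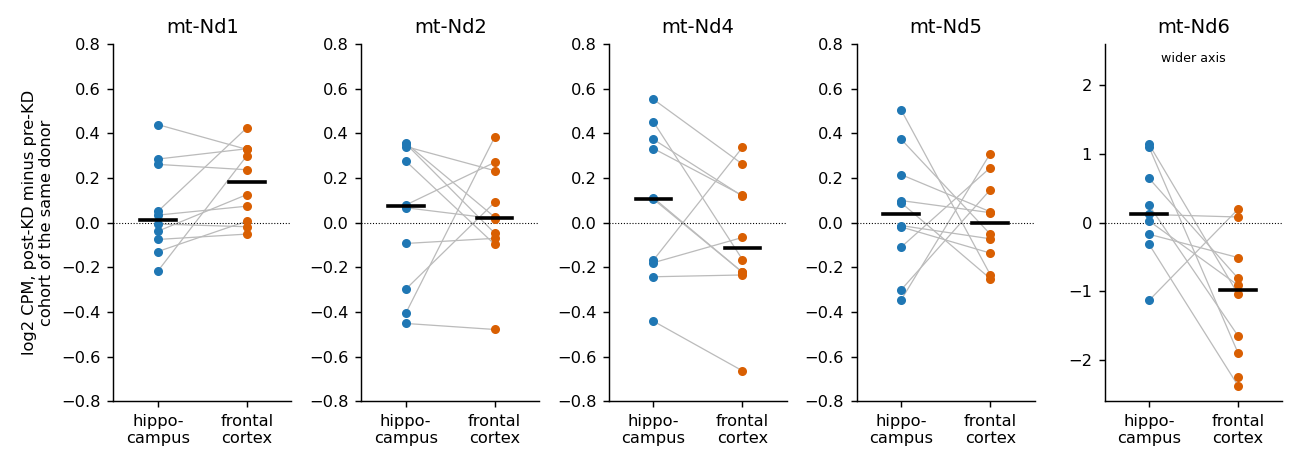
Each point is the log2 CPM of a post-KD cohort minus that of the pre-KD cohort of the same donor, in hippocampus (blue) and frontal cortex (orange), with a black bar at the median and a grey line joining both regions of a donor. mt-Nd6, on a wider axis and without the replicate at 0 counts in the hippocampus, lies below 0 in 8 of 10 frontal cortical pairs.

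mt-Nd4 was chosen for its region-dependent change, which is given here as values only. In the hippocampus it ran from 14447 through 22522 to 31013 CPM pre-KD and from 19493 through 23859 to 30502 CPM post-KD. In the frontal cortex it ran from 20014 through 24539 to 38185 CPM pre-KD and from 20176 through 24053 to 27248 CPM post-KD. The groups overlapped in both regions, and the pre-KD groups were the wider ones. The log2 change was 0.07 in hippocampal and −0.09 in frontal cortical libraries, a difference of −0.16. The post-KD level was higher in 6 of 10 hippocampal pairs and in 4 of 10 frontal cortical ones. Replicate by replicate the change ran from −0.44 to 0.55 (median 0.11) in the hippocampus and from −0.66 to 0.34 (median −0.12) in the frontal cortex, and 7 of 10 replicates had the lower change in the frontal cortex. The high pre-KD cohort of replicate 8 gave the lowest change in both regions. Without replicate 8 the log2 change was 0.14 in hippocampal and −0.01 in frontal cortical libraries, and the difference between them −0.15. The hippocampal change was 0.03 to 0.04 without replicate 1, 2, 5 or 9 and 0.11 without replicate 6, the frontal cortical one −0.14 without replicate 4, and with any 1 replicate left out the difference ran from −0.24 to −0.11.

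The ratio of mt-Nd4 to the other members within a library does not depend on the library's scaling. As a share of the complex I counts, mt-Nd4 had medians of 45.5% pre-KD and 45.7% post-KD in the hippocampus, and of 45.8% pre-KD (43.2% to 51.55%) and 44.0% post-KD (40.7% to 46.15%) in the frontal cortex. The log2 ratio of mt-Nd4 to the sum of the other members had medians of −0.26 and −0.25 in the hippocampus and of −0.24 and −0.35 in the frontal cortex. The share of mt-Nd1, which has the same denominator and so tends to rise by construction when that of mt-Nd4 falls, had a median there of 18.4% pre-KD (12.8% to 21.8%) and 20.8% post-KD (17.8% to 22.05%). The planned ratio of mt-Nd4 to mt-Nd4l, its neighbour on the same messenger, could not be formed because mt-Nd4l had no counts. In the frontal cortical post-KD libraries, the striatal markers summed to 714 to 1102 CPM against 501 to 1032 CPM pre-KD, while the hippocampal sums were 33 to 209 CPM post-KD and 79.2 to 295 CPM pre-KD, and their part in the mt-Nd4 values was not tested.

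For the other 4 members, the change in the frontal cortex minus that in the hippocampus was tested in the 40 libraries together, and none passed. The difference of the log2 changes was 0.115 (SE 0.05) for mt-Nd1, 0.01 (SE 0.04) for mt-Nd2, −0.04 (SE 0.08) for mt-Nd5 and −0.89 (SE 0.50, 95% interval −1.87 to 0.08) for mt-Nd6, and all 4 had an adjusted p of 1 over 19422 genes (edgeR). mt-Nd1 alone of the 4 had an unadjusted p under 0.05 (0.0234), beside 2.22% of all genes (1.35% with the change higher in the frontal cortex). The change of all 6 tested striatal markers was higher in the frontal cortex too, for 4 of them at an unadjusted p under 0.05. Of 4 tested blood markers it was higher for 2, both at that level, and lower for 2. The part of these markers in the mt-Nd1 difference was not tested. An adjusted p under 0.05 was reached by 0.0154% of all genes (0.0103% in that direction), which is 3 genes. Both of those in that direction were abundant RNAs of the lists, the mitochondrial rRNA mt-Rnr2 (0.15, SE 0.03, adjusted p = 3.6e-05 in edgeR) and Gm42418 (0.18, SE 0.02, adjusted p = 3.47e-20). DESeq2, edgeR's filterByExpr and both limma fits called 0 genes in this contrast, so neither call held there, and their part in the members' values was not tested. This fit took its spread from the trend over all genes, and the own spread of mt-Nd2, mt-Nd5 and mt-Nd6 was 5.31, 2.01 and 1.65 times that, so their SE are too small, and those of other abundant RNAs may be as well. The mt-Nd6 change that was seen in the frontal cortex was thus not shown to differ from the hippocampus.

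The third comparison set the frontal cortex against the hippocampus of the same cohort. The members were not chosen on it, although earlier results of these data were known when they were chosen. mt-Nd1 was higher in the frontal cortex in 17 of 20 cohorts, by a mean of 0.10 ± 0.13 on the log2 scale (SD, n = 20 cohorts), and mt-Nd2 in 13 of 20, by 0.11 ± 0.22 (SD, n = 20). mt-Nd4 was also higher there in 13 of 20, with a mean of 0.05 ± 0.25, and mt-Nd5 in 10 of 20, with a mean of −0.03 ± 0.25. With cohort as a block in edgeR, mt-Nd1 (adjusted p = 0.0037) and mt-Nd2 (adjusted p = 5.09e-05) passed, 2 of 5 tested members, both higher, beside 2.82% of 19422 genes (1.95% higher in the frontal cortex), and mt-Nd4 (0.0973), mt-Nd5 (0.947) and mt-Nd6 (log2 difference −0.57, 0.332) did not. At an unadjusted p under 0.05, 3 members were higher and mt-Nd6 was lower, beside 10.3% of all genes (7.67% higher).

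Both calls depended on the fit. This fit took every gene's spread from the trend over all genes, and the members' own spread was 1.04 times that for mt-Nd1, 5.31 times for mt-Nd2 and 9.08 times for mt-Nd4. A permutation test on the cohorts' own differences (signs flipped, 100000 resamples, two-sided, 5 members tested, not adjusted) gave p = 0.0009 for mt-Nd1, 0.0375 for mt-Nd2, 0.36 for mt-Nd4, 0.586 for mt-Nd5 and 0.201 for mt-Nd6. The mt-Nd6 value, on the log2(CPM + 1) scale, turned on the post-KD cohort of replicate 8, whose hippocampal library had 0 counts and whose difference was 4.2. With that cohort the mean was −0.44 ± 1.46 (SD, n = 20), and without it −0.68 ± 1.001 (SD, n = 19), with a lower level in the frontal cortex in 14 of 19 cohorts and an unadjusted permutation p of 0.00774. limma-trend, which keeps part of each gene's own spread, gave an adjusted p of 0.0144 for mt-Nd1 and 0.126 for mt-Nd2. 3 other edgeR settings kept mt-Nd2 and lost mt-Nd1: the adjusted p of mt-Nd1 was 0.129 with RLE size factors, 0.0704 with library totals alone and 0.0515 with the revised quasi-likelihood, where that of mt-Nd2 was 0.0137, 0.00497 and 0.00805. DESeq2 called neither (0.196 and 0.338). The median log2 difference was 0.17 over all genes tested, above both members, and 0.06 over the 4821 genes that averaged at least 50 counts, below both. The striatal and choroid plexus markers named above moved in this contrast too, with summed striatal markers at 33 to 295 CPM in the hippocampal and 501 to 1102 CPM in the frontal cortical libraries, while 3 of 8 neuron markers were called higher in the frontal cortex (sums of 4580 to 5897 CPM there against 4135 to 5465 CPM in hippocampal libraries). Blood markers (3 of 4 tested) and endothelial markers (3 of 6) were higher at an unadjusted p under 0.05 only. Of 6 abundant noncoding RNAs taken as signs of library quality, Malat1 was called lower (−0.09, adjusted p = 0.0165 in edgeR) and Snhg11 higher (0.14, adjusted p = 0.0325). The part of all these in the mt-Nd1 and mt-Nd2 difference was not tested.

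**Figure D4:**
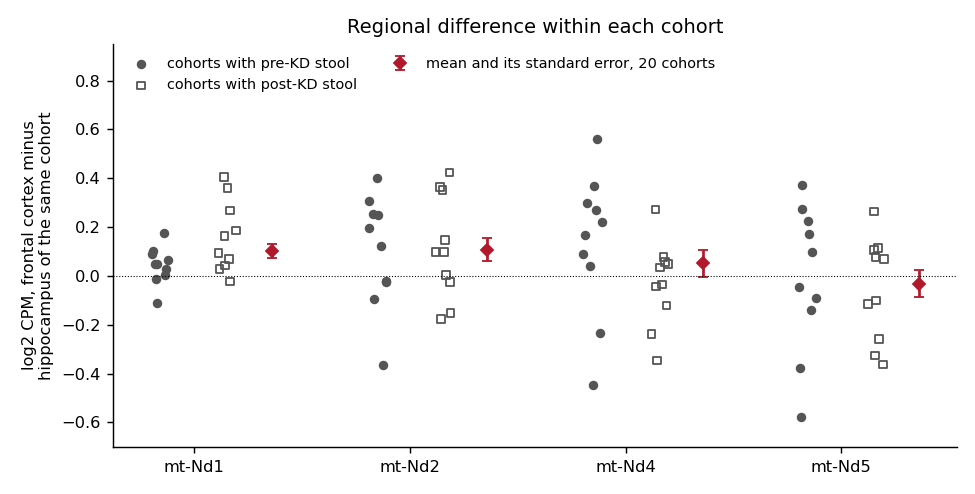
Each point is the log2 CPM of the frontal cortical library minus that of the hippocampal library of 1 cohort, filled for pre-KD and open for post-KD stool, with the mean and its standard error over 20 cohorts in red. The mt-Nd1 points lie above 0 in 17 of 20 cohorts, those of mt-Nd2 and of mt-Nd4 in 13 and those of mt-Nd5 in 10.

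The mt-Nd1 difference was the wider in post-KD cohorts, with a mean of 0.16 ± 0.145 (SD, n = 10) against 0.045 ± 0.08 (SD, n = 10) in pre-KD cohorts, and this difference is the one tested above. For mt-Nd4 the order was the other way, with 0.13 ± 0.29 pre-KD and −0.03 ± 0.17 post-KD. mt-Rnr1 (0.08, SE 0.02, adjusted p = 0.00765) and mt-Rnr2 (0.04, SE 0.01, adjusted p = 0.0271) were also called higher in the frontal cortex, and mt-Cytb (−0.09, SE 0.03, adjusted p = 0.037) lower, in the same fit with its trended spread.

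Of 37 listed nuclear subunit genes 36 were tested. 0 passed the adjusted threshold in either post-KD comparison, and 1 did so in the regional one, beside 2.82% of all genes there. At an unadjusted p under 0.05, 1 fell in the hippocampus, 1 rose in the frontal cortex and 5 were higher in the frontal cortex than in the hippocampus, beside 10.1%, 9.68% and 10.3% of all genes in either direction. Their median log2 change was −0.07 in hippocampal and 0.07 in frontal cortical libraries, beside −0.01 and 0.01 over all genes. Ndufs6, an accessory subunit, was higher in the frontal cortex by 0.50 (SE 0.15, adjusted p = 0.0303), at means of 120 ± 34.7 and 133 ± 31.7 CPM there (pre-KD, post-KD; SD, n = 10 each) against 96.5 ± 42.2 and 89.6 ± 32.1 CPM in the hippocampus. Ndufa5 (0.32, SE 0.11, adjusted p = 0.113) and Ndufv1, which carries the flavin (0.37, SE 0.15, adjusted p = 0.236), came next. Ndufs8, an iron-sulfur subunit, had a post-KD log2 change of −0.70 (SE 0.34, unadjusted p = 0.0382, adjusted p = 0.422) in the hippocampus, and Ndufa3 one of 0.33 (SE 0.16, unadjusted p = 0.0473, adjusted p = 0.5) in the frontal cortex. None of the 16 tested assembly factors (of 17) passed at either level in these 3 comparisons.

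Genes that make and process mtDNA transcripts were also listed, 13 for transcription and replication (13 tested) and 19 for RNA processing and stability (18 tested). 1 of these 31 tested genes passed in the regional comparison, where 2.82% of all genes did, and 0 in the post-KD ones. Tfb2m, a transcription factor of the mitochondrial polymerase, was called higher in the frontal cortex (adjusted p = 0.05, under the threshold before rounding), with a log2 difference of 2.68 (SE 0.84) in the fit with cohort as a block that is far larger than its group means give, at low levels of 9.23 ± 13 and 12 ± 8.1 CPM there against 6.54 ± 10.9 and 4.79 ± 7.74 CPM in the hippocampus (SD, n = 10 each). Ssbp1, the single-stranded DNA-binding protein of mtDNA replication, had a post-KD log2 change of 1.11 in the frontal cortex (SE 0.52, unadjusted p = 0.0346, adjusted p = 0.429), from 8.92 ± 6.22 to 19.2 ± 11.4 CPM. Fastkd5 (2.47, SE 1.26, adjusted p = 0.483) and Tbrg4 (−0.88, SE 0.48, adjusted p = 0.555), both RNA-binding proteins of mitochondria, came next in the regional comparison. Their counts were low, and the SE of 0.48 to 1.26 limits what could be detected.

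The genes whose levels most resembled mt-Nd4 differed between regions. Over the 20 hippocampal libraries the 5 nuclear genes with the highest Pearson's r of log2 CPM were Bcas3 (0.82), Clu, the secreted chaperone clusterin (0.81), Brd9 (0.81), Kif1a, a motor of axonal transport (0.80), and Marf1 (0.80), among 4652 genes compared. mt-Nd2 ranked 17 with 0.77, mt-Rnr1 134 with 0.63 and mt-Nd5 434 with 0.51, while mt-Co1 (−0.08) and mt-Cytb (−0.21) ranked far down. In the frontal cortex mt-Nd2 ranked 1 among 4972 genes with 0.75 and mt-Nd5 ranked 7 with 0.70. The 5 nuclear genes there were Chd8, a chromatin remodeller (0.74), Sugp2 (0.74), Tef (0.73), Sparcl1 (0.72) and Lrrc4c (0.71). These r values describe 20 libraries each and carry no test. In the frontal cortex 1 library, pre-KD replicate 8, had the highest mt-Nd4 (38185 CPM), mt-Nd2 (22548 CPM) and mt-Nd5 (3785 CPM). Its part in these r values and ranks was not tested. Gm42418 had an r of 0.39 and 0.23 with mt-Nd4 in the same libraries.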

How the data were processed

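RNA was measured in 40 libraries from hippocampus and frontal cortex. Per the labels, libraries were made with a TruSeq kit, and the submitters' processing notes name FastQC 0.11.5, STAR 2.5.2a, SAMtools 1.3, HTSeq 0.6.0 and the build mm10. The deposited values are raw counts per gene, without normalization. The annotation release, the strand setting and the handling of reads with several matches are not given in the sources used here, and the study's resource list also names a 3′ end library kit and another aligner. Such settings could move counts between mtDNA genes, their nuclear copies and antisense genes.

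Identifiers were named from GENCODE release M21, and 47224 of 47643 matched. edgeR 4.0.16 (TMM, quasi-likelihood test, at least 10 counts over a fit's libraries, adjusted p under 0.05) compared post-KD with pre-KD within each region. The regional comparison and the difference of changes used 40 libraries with cohort as a block. CPM were scaled by TMM over all libraries. DESeq2 1.42.0, limma 3.58.1 and other scalings, filters and left-out replicates were alternatives. The scripts were tested on simulated data.

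The same donor number marks cohorts given stool of the same donor. The correlations of same-numbered deviations ran from −0.0279 to 0.0297 in the hippocampus and from −0.0562 to 0.0315 in the frontal cortex. The members, lists and rules were chosen with earlier results of these data known: all 7 members were named, then from the nuclear lists the 3 smallest p values of the regional comparison and at most 3 with an unadjusted p under 0.05 in each post-KD comparison, and the 5 nuclear genes most like mt-Nd4 per region among genes averaging at least 50 counts (prior count 2).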

Additional observations from a re-analysis of the deposited data

Results flagged for a closer look

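2 of 24 groups of 10 libraries held a value that lay apart by Dixon's criterion, which flags about 1 in 20 groups by chance. In the pre-KD frontal cortex, mt-Nd4 was at 38185 CPM and mt-Nd2 at 22548 CPM in replicate 8, against 26889 and 16711 CPM in the next libraries of the group. Both values are of 1 library, which also held the group's highest share of Gm42418, at 18% of counts.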

How the results depend on the processing

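Post-KD comparisons called 0 of 4 members under each alternative and each left-out replicate, in both regions and for the difference between regions, except that limma-voom called 1 in the frontal cortex: mt-Nd2 at 0.43, far from its group means. limma-voom also put mt-Nd4 there at −0.51. The regional comparison, with 2 of 5 called, gave 0 with DESeq2, with edgeR's filterByExpr and without the replicate block (mt-Nd1 adjusted p = 0.0866, mt-Nd2 0.166), and 1 with RLE size factors and library totals alone (mt-Nd2) and with limma-voom and limma-trend (mt-Nd1). It gave 3 with every gene with a count, which added mt-Nd4 (adjusted p = 0.0447), and 2 with edgeR's revised quasi-likelihood, which called mt-Nd2 (0.00805) and mt-Nd6 (0.0486). It gave 2 to 3 when 1 replicate was left out, the third being mt-Nd4 without replicate 3, 4 or 10. With the donor as a replicate block, mt-Nd1 and mt-Nd6 in the frontal cortex had adjusted p values of 0.742 and 0.597, and no call changed. Over the alternatives their adjusted p ran from 0.0578 to 0.935.

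The sign turned for 7 of the members' values, none of them called in the reported fits. mt-Nd6 in the hippocampus was −0.002 without Gm42418, −0.003 with every gene with a count, −0.14 with the replicate block, −0.041 with edgeR's revised quasi-likelihood, −0.68 with limma-voom and −0.40 with limma-trend, and ran from −0.11 to 0.175 with a replicate left out. mt-Nd5 in the frontal cortex was 0.00 with DESeq2, 0.003 with the block and with limma-trend, and 0.055 with limma-voom (left-out replicates −0.042 to 0.023). mt-Nd2 ran from −0.031 to 0.08 in the hippocampus and from −0.024 to 0.079 in the frontal cortex with a replicate left out, and mt-Nd5 from −0.007 to 0.083 in the hippocampus. The difference between regions was −0.017 for mt-Nd2 with library totals alone (−0.077 to 0.06 with a replicate left out) and 0.05 for mt-Nd5 with limma-voom (−0.12 to 0.033).

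Without Gm42418 in the total, the complex I share had medians of 5.77% and 6.11% in the hippocampus (pre-KD, post-KD) and 6.05% and 6.26% in the frontal cortex. Of mtDNA protein counts it was 82.8% and 82.8%, and 85.2% and 83.5%. Counting only unshared windows moved the medians of mt-Nd2 to 17057 and of mt-Nd4 to 47533 CPM per kb. The unshared windows, the permutation test, the revised quasi-likelihood, a robust prior and both limma fits were added after seeing the data, and the cause of the changed calls was not tested. Over all genes, the regional comparison called 548, with 1049 under DESeq2 and 1222 without the block, and the hippocampal one called 1, with 0 under DESeq2, edgeR's filterByExpr, the block, the robust prior and limma-trend, 3 under the revised quasi-likelihood and 1291 with every gene with a count. The frontal cortical one called 1, with 2 under DESeq2, 3 with the block and 0 under the robust prior and limma-trend. The difference between regions called 3, with 0 under DESeq2, filterByExpr and both limma fits, 1 under the revised quasi-likelihood and 348 without the block. The regional log2 difference of mt-Nd1 was 0.07 to 0.10 and that of mt-Nd2 0.07 to 0.14 over the alternatives.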
